A study of Arabidopsis thaliana with 7 samples.

Results

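The genes described here are 8 BCS1-like AAA ATPase genes of Arabidopsis thaliana, out of 27655 genes in the count tables. They are AT2G18190, AT2G18193, AT3G50930 (OM66), AT3G50940, AT5G17760, AT3G28510, AT3G28540 and AT3G28580. The members were chosen by family and with these same expression values already known, so their differences between genotypes are given as a description. No P is given for a member, and where a member is said to be past the threshold of the fit across all genes, that is not independent evidence of a difference. Transcript levels were compared across wild type (WT, 2 libraries) and hot3-2 (3 libraries) and hot3-3 (2 libraries), which are T-DNA insertion alleles of HOT3. HOT3 encodes eIF5B1, a translation initiation factor that helps the ribosomal subunits join. All seedlings were of the Col-0 background and were 18 days old. Per the sample records they were grown at 23 °C under 16 h of light and 8 h of dark with no other treatment. The paper's methods give a slightly lower temperature. Polyadenylated RNA was sequenced from 4 µg of total RNA. The sources used here do not say whether the libraries of a genotype came from separate plantings or how many seedlings were pooled, so that P values measure the spread between these libraries, which may be technical.

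BCS1-like proteins are AAA ATPases, enzymes that use ATP to remodel or move other proteins. Yeast and human BCS1 sit in the inner mitochondrial membrane and insert the Rieske iron-sulfur protein into respiratory complex III. In plants the family has expanded, and OM66 lies in the outer mitochondrial membrane. OM66 is known for its rise when mitochondria are disturbed and for roles in cell death and salicylic acid signalling. The roles of the other members in Arabidopsis are less well described.

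The members form neighbouring groups in the genome, given here in TAIR10.1 coordinates of the RefSeq annotation. AT2G18190 (chr2:7913955-7915872, minus strand, 494 codons) and AT2G18193 (chr2:7917413-7919345, minus strand, 495 codons) were separated by 1540 bases with no gene between them. Their coding sequences were 80.3% identical and their proteins 82.3%. OM66 (chr3:18929526-18932181, plus strand, 1 exon, 576 codons) and AT3G50940 (chr3:18933751-18935611, plus strand, 451 codons) lay 1569 bases apart and were 73.8% identical in protein. AT3G28510 (chr3:10685470-10687429, 530 codons), AT3G28540 (chr3:10694175-10696249, 510 codons) and AT3G28580 (chr3:10715597-10717393, 500 codons) are all on the plus strand, within a cluster that also holds AT3G28520, AT3G28570, AT3G28600 and AT3G28610. Proteins of AT3G28510 and AT3G28540 were 75.9% identical and those of AT3G28510 and AT3G28580 60.9%. AT5G17760 (chr5:5860350-5862475, minus strand, 505 codons) lay 308 bases from AT5G17750, another BCS1-like gene. No member overlapped another gene.

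All 8 members have the Walker A loop, which holds the phosphates of ATP. Its coding stretch is shown because it displays both what the members share and how alike the neighbouring copies are. Of the other BCS1-like genes examined below, AT4G05340, annotated at 96 codons, did not have the loop. The stretches were read from the RefSeq TAIR10.1 genome on the coding strand, and capitals mark the codons for the loop's lysine and serine.
AT2G18190: gggccaccaggaactggtAAATCT
AT2G18193: gggccaccaggaactggtAAATCT
OM66: ggtccaccaggcacagggAAGTCA
AT3G50940: ggtcctcccggtactggaAAATCA
AT5G17760: ggtccaccgggtacggggAAGTCT
AT3G28510: ggcccgcccgggacagggAAATCG
AT3G28540: ggaccgccggggacagggAAATCG
AT3G28580: ggaccacccgggactgggAAGTCT
AT2G18190 and AT2G18193 had the same 24 bases. AT3G28510 and AT3G28540 differed at 2 of them, whereas OM66 and AT3G50940 differed at 6. Copies this alike bear on the counts, because the authors counted only uniquely aligned reads. The longest stretch of a member found elsewhere in the genome was 89 bases, shared by AT2G18190 and AT2G18193. The next longest was 56 bases in AT3G28540, shared with AT3G28560. All were shorter than the 150-base reads, so an untrimmed read could not lie wholly within one. The lengths of the trimmed reads are not known here.

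The 250 bases upstream of each annotated start were searched for the mitochondrial dysfunction motif, which NAC factors such as ANAC013 and ANAC017 are known to bind. The letters searched were CTTGNNNNNCAAG and CTTGNNNNNCACG, on both strands. One or the other stood in this window in 1.2% of 27443 genes. Of the 8 members, 2 had a match, AT2G18193 and AT3G28580, and their windows are shown with the match in capitals. The windows are chr2:7919346-7919595 (minus strand) for AT2G18193 and chr3:10715347-10715596 (plus strand) for AT3G28580.
AT2G18193: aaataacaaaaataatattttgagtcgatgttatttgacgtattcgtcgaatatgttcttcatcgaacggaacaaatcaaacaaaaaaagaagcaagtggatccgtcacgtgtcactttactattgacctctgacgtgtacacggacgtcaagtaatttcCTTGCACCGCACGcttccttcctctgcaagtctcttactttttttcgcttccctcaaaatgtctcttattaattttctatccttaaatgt
AT3G28580: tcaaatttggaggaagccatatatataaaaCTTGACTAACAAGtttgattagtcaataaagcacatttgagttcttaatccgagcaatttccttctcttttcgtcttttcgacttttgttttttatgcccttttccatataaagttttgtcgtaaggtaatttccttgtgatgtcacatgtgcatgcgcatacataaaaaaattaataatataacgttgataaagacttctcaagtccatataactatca
The match lay 78 bases before the start of AT2G18193 and 208 bases before that of AT3G28580. OM66 had none within its window. Among the 16 other BCS1-like genes 1 had a match, AT3G28610. A match is a string of letters and was not tested as a binding site, and its absence says nothing about sequence outside the window.

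The libraries held 14090881 to 34696683 assigned counts, and 20795 genes passed the filter on low counts. Levels are given as normalised counts scaled to library size (CPM, counts per 1000000 counts), with library sizes adjusted by the trimmed mean of M values. HOT3 itself (AT1G76810) was at 171 and 169 CPM in WT and at 77.7, 97.4 and 92.5 CPM in hot3-2. In hot3-3 it was at 195 and 271 CPM, not below WT, so its level gives no check of the hot3-3 label. The name "hot3-3" here means the libraries labelled so. The paper reports that reads were lacking near the T-DNA insertion sites of both alleles, which counts per gene cannot show. Summed CPM of 4 shoot markers, all detected, spanned 17698 to 20633 for WT, 13547 to 14250 for hot3-2 and 12291 to 13080 for hot3-3. Within this list CA1 was called lower in both alleles, at means of 3643, 1312 and 936 CPM, respectively. RBCS1A, at means of 11663, 9148 and 8610 CPM, and RCA, at means of 3817, 3463 and 3078 CPM, were lower but not past the threshold. GLK2 went the other way, at means of 43.1, 55.2 and 62.2 CPM, also not past the threshold. Summed CPM of 5 root markers, all detected, was 33.1 to 45.7, 28.8 to 38.5 and 31.4 to 36.2, respectively, but these markers did not move together. TIP2;3 was called lower in both alleles, at means of 24.4, 9.66 and 8.87 CPM, and NRT2.1 was called higher, at means of 0.0856, 4.80 and 2.7 CPM. PIN2, CASP1 and COBL9 had fitted log2 fold changes of 0.41 to 1.54, not past the threshold. The 3 flower markers summed to 3.81 to 4.98, 1.86 to 2.61 and 1.88 to 2.07 CPM, with AP1 at 0 in hot3-3. Of the senescent leaf markers SAG12 was at 0 in every library, and the pair with SEN4 summed to 157 to 222, 125 to 144 and 99.4 to 113 CPM. The part of these marker differences in the results was not tested, and in bulk seedlings fewer cells of a type and less RNA per cell cannot be told apart.

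Levels of 7 of the 8 members passed the filter, and their fitted log2 fold changes against WT were all above 0 in both alleles. AT2G18190 and AT3G50940, with 6 and 9 WT counts in all, passed the filter only through mutant libraries. In the alleles that carried these 2 past the filter they could only come out higher, and the medians below include them. A gene was called when its adjusted P was below 0.01 in edgeR's quasi-likelihood test and its log2 fold change was at least 1 in size. In hot3-2, 4 members were past this threshold as higher, AT2G18190, AT2G18193, OM66 and AT3G28580, where 7.8% of all tested genes were. In hot3-3, AT5G17760 joined them, which makes 5 members, where 9.63% of all tested genes were higher. None was lower, where 3.88% of tested genes were lower in hot3-2 and 4.91% in hot3-3. Since the members were chosen with these values known, nothing is read from these counts. The median log2 fold change of the 7 was 2.08 in hot3-2 and 3.81 in hot3-3, beside 0.0013 and 0.011 over all tested genes. Both alleles were compared with the same WT libraries, so the 2 sets of values are not independent of each other.

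**Figure D1:**
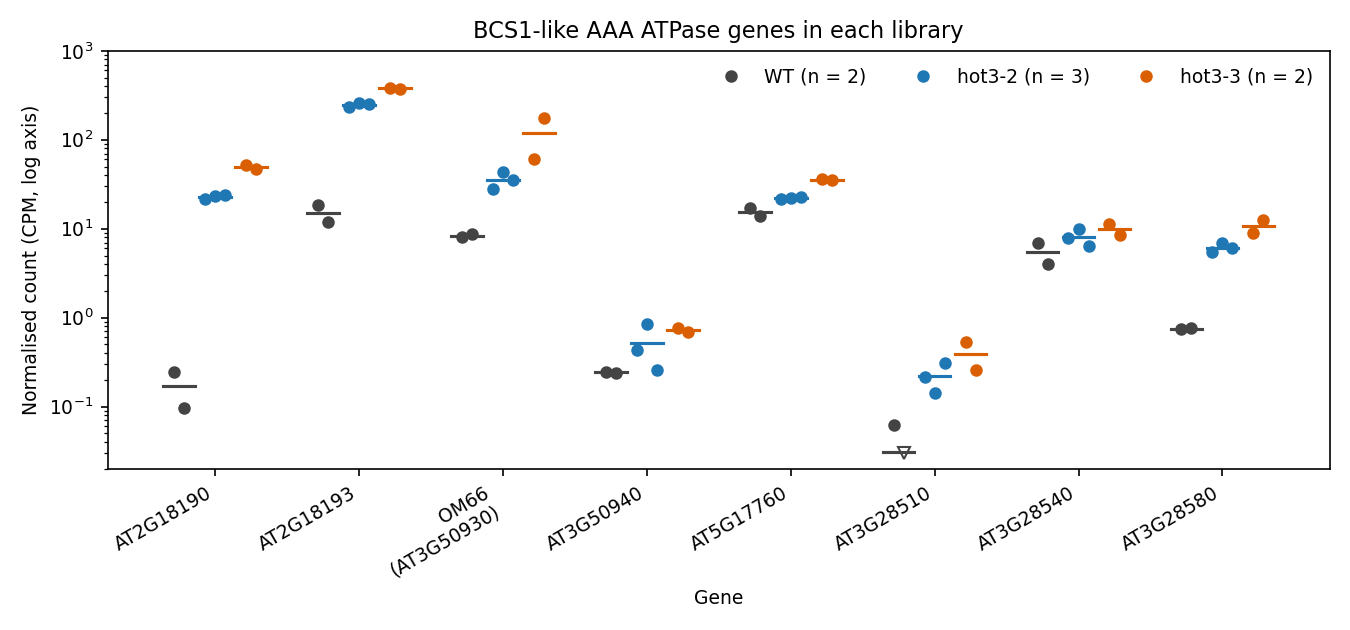
Normalised counts (CPM, log axis) of the 8 members in each library, with a point for each library, a horizontal line at the mean of each genotype, and an open triangle at the foot of the axis for a count of 0. AT2G18193 is the highest member in every mutant library and reaches 381 CPM in hot3-3, while AT2G18190 moves from 0.246 CPM or less in WT to 46.5 CPM or more in hot3-3.

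AT2G18190 was nearly silent in WT and was the member with the largest difference. It had 4 and 2 counts in the WT libraries, or 0.246 and 0.0963 CPM. In hot3-2 it stood at 21.7, 23.3 and 23.8 CPM, and in hot3-3 at 52.1 and 46.5 CPM. The 3 genotypes did not overlap, and the replicates of each mutant lay close together. The log2 fold change was 7.09 ± 0.22 (SE) in hot3-2 and 8.19 ± 0.21 in hot3-3, the 13th and 12th highest among the tested genes. The gene passed the filter only through mutant libraries and could only come out higher, so nothing is read from these ranks. Because these folds rest on 6 WT counts, the ratios of pooled counts were also computed. They were 141 (exact 95% interval 64.4 to 384) in hot3-2 and 300.0 (138 to 818) in hot3-3, where the intervals cover counting error only. Without WT replicate 2 the log2 fold changes were 6.47 and 7.59, and without WT replicate 1 they were 7.81 and 8.91.

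Its neighbour AT2G18193 was already expressed in WT, at 18.3 and 11.9 CPM. It stood at 234, 257 and 250 CPM in hot3-2 and at 381 and 372 CPM in hot3-3. Every mutant library was far above both WT libraries, and both hot3-3 libraries were above the 3 of hot3-2. Means were 15.1 ± 4.47 (SD, n = 2), 247 ± 12.2 (SD, n = 3) and 377 ± 6.0 CPM (SD, n = 2). The log2 fold change was 4.04 ± 0.17 in hot3-2 and 4.65 ± 0.17 in hot3-3. AT2G18193 made up 35.3% and 30.1% of the summed CPM of the 8 members for WT, against 70.6 to 73.3% for hot3-2 and 69.2% and 57.2% for hot3-3.

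OM66, the outer membrane protein, was at 8.00 and 8.77 CPM in WT and at 27.9, 43.7 and 35.4 CPM in hot3-2. In hot3-3 the libraries stood apart, at 60.1 CPM in replicate 1 and 175 CPM in replicate 2. The genotypes did not overlap, but the hot3-3 mean of 118 ± 81.6 CPM (SD, n = 2) had a wide spread. The log2 fold change was 2.08 ± 0.43 in hot3-2 and 3.81 ± 0.46 in hot3-3. Without hot3-3 replicate 2 the latter was 2.84 and without hot3-3 replicate 1 it was 4.38. In hot3-2, OM66 was no longer past the threshold when WT replicate 1, WT replicate 2, hot3-2 replicate 2 or hot3-2 replicate 3 was left out, at log2 fold changes of 2.01, 2.11, 1.91 and 2.08.

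AT3G50940, next to OM66, was low throughout. Its raw counts were 4 and 5 (WT), 10, 12 and 5 (hot3-2) and 16 and 24 (hot3-3), which is 0.241 to 0.857 CPM over all libraries. The lowest hot3-2 library, at 0.261 CPM, was only just above WT, at 0.246 and 0.241 CPM. Fitted log2 fold changes were 0.98 ± 0.59 and 1.55 ± 0.56, and neither was past the threshold. The ratio of pooled counts to WT was 1.97 (exact 95% interval 0.899 to 4.76) in hot3-2 and 2.95 (1.41 to 6.91) in hot3-3.

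The 3 members of the chromosome 3 cluster differed from each other. AT3G28580 was at 0.738 and 0.771 CPM in WT, 5.42, 6.93 and 6.0 CPM in hot3-2, and 8.95 and 12.5 CPM in hot3-3. Its genotypes did not overlap, and its log2 fold change was 3.00 ± 0.26 in hot3-2 and 3.83 ± 0.26 in hot3-3. AT3G28540 was the highest of the 3 in WT, at 6.89 and 4.00 CPM, and it was at 7.96, 9.93 and 6.47 CPM in hot3-2 and at 11.3 and 8.42 CPM in hot3-3. Its hot3-2 libraries overlapped those of WT, and neither its log2 fold change in hot3-2, 0.58 ± 0.26, nor that in hot3-3, 0.87 ± 0.27, was past the threshold. Without WT replicate 1, its value in hot3-3 was 1.29 and past the threshold. AT3G28510 did not pass the filter. Its raw counts were 1 and 0 (WT), 5, 2 and 6 (hot3-2) and 11 and 9 (hot3-3), and the ratio of pooled counts to WT was 8.53 (exact 95% interval 1.28 to 363) and 13.3 (2.12 to 549.9), respectively.

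AT5G17760 differed least among the members past the threshold. It was at 17.3 and 13.8 CPM in WT, 21.6, 22.1 and 22.5 CPM in hot3-2, and 36.1 and 35.1 CPM in hot3-3. The genotypes did not overlap. The log2 fold change was 0.51 ± 0.10 in hot3-2 and 1.20 ± 0.11 in hot3-3. Its values, and those of AT3G28540 in hot3-3 at 0.87, lie on either side of the log2 threshold of 1.

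The alleles were also compared directly. All 7 tested members had a higher fitted level in hot3-3 than in hot3-2, with a median log2 difference of 0.69 beside -0.0026 over all tested genes. This was not particular to the members. Of the 8 other BCS1-like genes tested, which are described below, 7 were also higher, with a median of 0.59. The exception was AT4G25835, at -0.72. AT2G18190 was the only member past the threshold, at 1.11 ± 0.10. Of all tested genes, 0.856% were past the threshold upward and 0.351% downward. OM66 had a larger difference, 1.74 ± 0.36, that was not past the threshold and that was 0.76 without hot3-3 replicate 2 and 2.31, past the threshold, without hot3-3 replicate 1. AT3G28580 differed by 0.83 ± 0.17, and it too was past the threshold without hot3-3 replicate 1, at 1.04. The difference was 0.69 ± 0.10 for AT5G17760 and 0.61 ± 0.13 for AT2G18193. Summed over the 8 members, WT libraries had 51.7 and 39.6 CPM, hot3-2 libraries 319, 364 and 345 CPM, and hot3-3 libraries 551 and 651 CPM.

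Copies of the same pair or cluster were compared within each library by the ratio of their CPM per kb of deposited gene length. AT2G18193 exceeded AT2G18190 by 73.4 and 123 times in WT, on the few AT2G18190 counts given above. The ratio was 10.6, 10.9 and 10.4 for hot3-2 and 7.22 and 7.91 for hot3-3, so AT2G18190 came closer to its neighbour in every mutant library while remaining the lower copy. Within the chromosome 3 cluster the members do not adjoin each other, and AT3G28570 lies between AT3G28540 and AT3G28580. AT3G28540 exceeded AT3G28580 by 8.08 and 4.49 times in WT, and the 2 genes were at more even levels in the mutants, with ratios of 1.27, 1.24 and 0.934 for hot3-2 and 1.09 and 0.583 for hot3-3. These 2 are not each other's closest copies. Their proteins were 58.2% identical, against 76.2% for AT3G28580 and AATP1 (AT5G40010), a BCS1-like gene outside the cluster that is described below. Against AT3G28510, the copy most like it in protein, AT3G28540 was 106 times higher in WT replicate 1, where AT3G28510 had 1 count, and no ratio could be formed in WT replicate 2, where it had 0. The ratios were 34.9, 65.6 and 19.5 for hot3-2 and 20.2 and 31.0 for hot3-3, with 2 to 11 counts of AT3G28510 behind each. For the adjoining pair on the same chromosome the ratio of OM66 to AT3G50940 was 18.6 and 20.9 for WT, against 37.2, 29.2 and 77.8 for hot3-2 and 44.7 and 147 for hot3-3. The mutant ratios of this pair were above those of WT but spread widely, with 5 to 24 counts of AT3G50940 behind each.

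**Figure D2:**
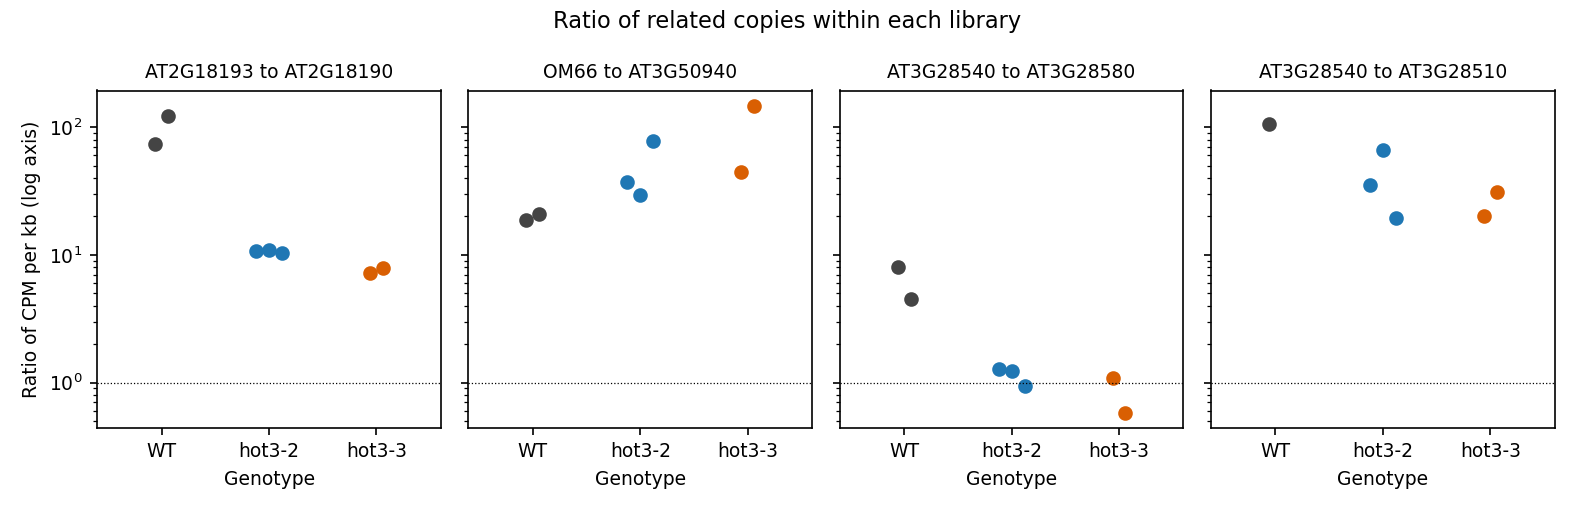
Ratio of CPM per kb (log axis) between the named copies within each library, with a point for each library and a dotted line at equal levels (WT replicate 2 has no point against AT3G28510, which had 0 counts there). The ratio of AT2G18193 to AT2G18190 lies at 73.4 and 123 in WT and between 7.22 and 10.9 in the 5 mutant libraries, and that of AT3G28540 to AT3G28580 lies between 0.583 and 1.27 in the mutants.

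Per kb of gene length, the order of levels within the family also differed by genotype. In WT the highest mean of the 24 BCS1-like genes listed was that of AT2G18193, at 8.14 ± 2.41 CPM per kb (SD, n = 2). It did not differ beyond this spread from AT2G46620 at 7.46 ± 1.60, AT5G17760 at 7.32 ± 1.15 or AT4G25835 at 6.76 ± 1.37 CPM per kb. OM66 followed at 3.16 ± 0.205 CPM per kb, and AT2G18190 was 14th at 0.0933 CPM per kb. In hot3-2 AT2G18193 stood alone at 133 ± 6.57 CPM per kb (SD, n = 3). OM66 at 13.4 ± 2.96, AT2G18190 at 12.5 ± 0.601 and AT4G25835 at 11.3 ± 0.425 CPM per kb came next, and the spread of OM66 covers the others. In hot3-3 the order was AT2G18193 at 203 ± 3.23, OM66 at 44.3 ± 30.7, AT2G18190 at 26.9 ± 2.16 and AT5G17760 at 16.7 ± 0.348 CPM per kb (SD, n = 2), and the spread of OM66 again covers AT2G18190 and also AT5G17760.

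Outside the 8 members, 16 other BCS1-like genes were examined, of which 8 passed the filter. Of the rest, AT3G28520, AT4G05340, AT5G17730 and AT5G17750 had no count in any library. In hot3-2, 2 of the 8 tested were higher, AT4G05380 and AT3G28570, beside 7.8% of all tested genes. In hot3-3, 4 were higher, the same pair with AT1G43910 and AATP1 (AT5G40010), beside 9.63%. None was lower in either allele by edgeR or by DESeq2, and at an unadjusted P below 0.05, 1 was lower in hot3-2 and 0 in hot3-3. The median log2 fold change of the 8 was 0.55 in hot3-2 and 0.96 in hot3-3. The count in hot3-2 was 1 without WT replicate 2, hot3-2 replicate 1 or hot3-2 replicate 2, and that in hot3-3 was 1 without WT replicate 2 and 2 when only the compared groups were fitted. AT4G05380 and AT3G28570, with 5 and 2 WT counts in all, passed the filter only through mutant libraries, and AATP1 only through hot3-3. In the alleles that carried them past the filter they could only come out higher. This list was also chosen with earlier results of these data known, so nothing is read from the counts of calls.

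AT4G05380 resembled AT2G18190 in being nearly silent in WT. It was at 0.185 and 0.0963 CPM in WT, 8.48, 13.6 and 12.0 CPM in hot3-2, and 20.4 and 22.7 CPM in hot3-3. By edgeR's quasi-likelihood test the log2 fold change was 6.32 ± 0.39 (adjusted P = 4.43e-06) in hot3-2 and 7.26 ± 0.37 (adjusted P = 1.76e-06) in hot3-3, and it was past the threshold in all 13 alternative settings, with adjusted P up to 0.000104 and 0.00014. On 5 WT counts in all, the ratio of pooled counts was 81.1 (exact 95% interval 34.6 to 251) and 162 (69.2 to 499).

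AT3G28570, a neighbour of AT3G28580, had raw counts of 2 and 0 (WT), 23, 12 and 8 (hot3-2) and 24 and 35 (hot3-3). Its log2 fold change was 3.67 ± 0.82 (adjusted P = 0.00528, edgeR's quasi-likelihood test) in hot3-2 and 4.16 ± 0.79 (adjusted P = 0.00205) in hot3-3. It was past the threshold in 10 and 12 of the 13 alternative settings, and without WT replicate 2 the adjusted P was 0.045 and 0.0182. The ratio of pooled counts was 14.1 (exact 95% interval 3.68 to 120) and 19.6 (5.18 to 165). AATP1 was at 0.369 and 0.482 CPM in WT, 0.313 to 0.387 CPM in hot3-2, and 2.02 and 1.06 CPM in hot3-3. Its log2 fold change was 1.77 ± 0.43 (adjusted P = 0.00758, edgeR's quasi-likelihood test) in hot3-3 and -0.28 (adjusted P = 0.68) in hot3-2. The difference between the alleles, 2.05, did not pass (adjusted P = 0.015), and the hot3-3 value was past the threshold in 4 of 13 alternative settings, with adjusted P up to 0.0426. AT1G43910 had a log2 fold change of 1.07 ± 0.21 in hot3-3 (adjusted P = 0.00249, edgeR's quasi-likelihood test) and was past the threshold in 9 of 13 settings, with adjusted P up to 0.0208. It overlaps AT1G43900 on the other strand by 45 bases, so reads there are uncertain. The most abundant genes not past the threshold were AT2G46620 and AT4G25835, at means of 15.5 and 15.1 CPM in WT, 15.3 and 25.3 CPM in hot3-2, and 21.0 and 15.4 CPM in hot3-3. AT4G25835 had a log2 fold change of 0.74 in hot3-2 (adjusted P = 0.000976) and 0.02 in hot3-3 (adjusted P = 0.907) by the same edgeR test, and the latter was -0.17 to 0.23 over the alternative settings. AT2G46620 had -0.03 (adjusted P = 0.877), or -0.23 to 0.18 over the settings, and 0.43 (adjusted P = 0.0354) by edgeR.

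**Figure D3:**
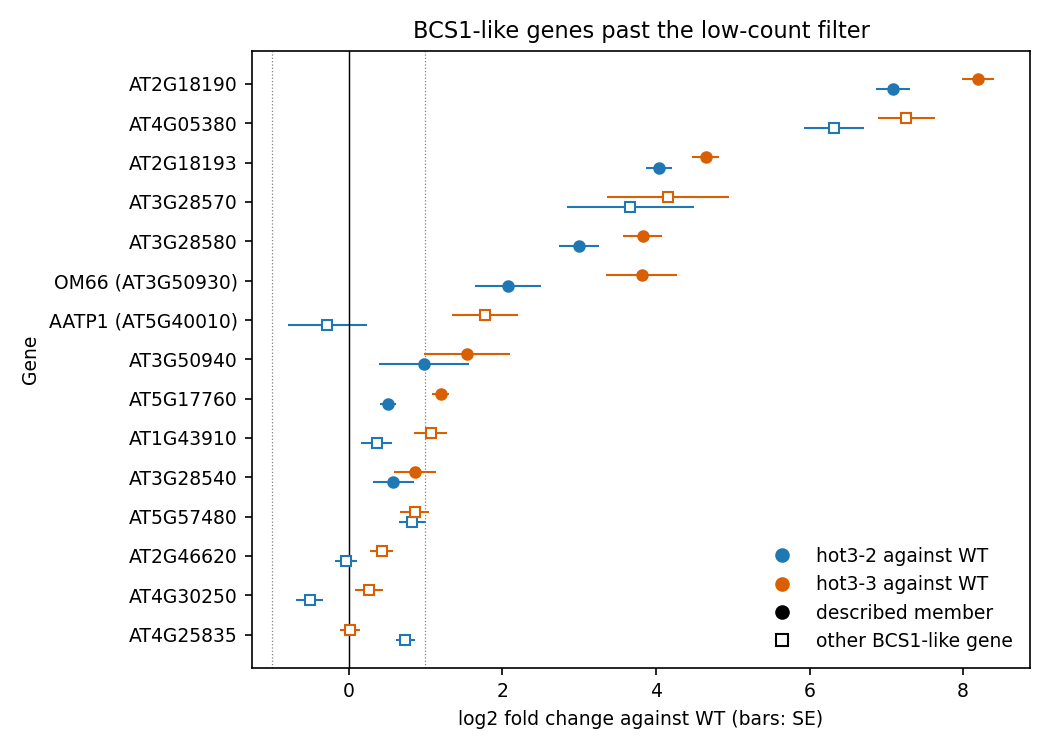
Fitted log2 fold change against WT, with its SE as bars, for the 7 members and the 8 other BCS1-like genes past the low-count filter, with hot3-2 in blue and hot3-3 in orange and dotted lines at the fold threshold. AT2G18190 at 8.19, AT4G05380 at 7.26 and AT2G18193 at 4.65 have the highest values in hot3-3, and 4 of the other genes lie beyond 1 there.

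The Rieske protein, which yeast and human BCS1 insert, belongs to complex III, which passes electrons from ubiquinol to cytochrome c. All 15 complex III genes passed the filter, and all had a fitted log2 fold change above 0 in both alleles, with medians of 0.66 in hot3-2 and 0.69 in hot3-3. For AT5G40810 and AT2G01090 in hot3-3 the sign was not stable: both were below 0 without WT replicate 2, and AT2G01090 also without hot3-3 replicate 2, over ranges of -0.06 to 0.16 and -0.07 to 0.21. Most were below the fold threshold. Only 1 was past it in hot3-2, AT5G05370, and 1 in hot3-3, AT5G25450, beside 7.8% and 9.63% of all tested genes, and none was lower by edgeR or DESeq2, with 0 lower at an unadjusted P below 0.05. At an adjusted P below 0.05 with no fold limit, 13 of 15 were higher in each allele, where 26.2% of all tested genes were higher in hot3-2 and 27.0% in hot3-3. The count past the threshold in hot3-2 was 0 without hot3-2 replicate 1 and 3 without hot3-2 replicate 2, and that in hot3-3 was 2 without WT replicate 2 or hot3-3 replicate 1. The complex III list too was chosen with earlier results of these data known, so its counts and P values are not independent evidence.

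Of the genes for the Rieske protein, UCR1-1 (AT5G13430) was at 69.0 and 65.3 CPM in WT, 111, 102 and 105 CPM in hot3-2, and 112 and 118 CPM in hot3-3. Its log2 fold change was 0.66 ± 0.08 (adjusted P = 0.000126, edgeR's quasi-likelihood test) in hot3-2 and 0.77 ± 0.08 (adjusted P = 6.65e-05) in hot3-3. The second gene, UCR1-2 (AT5G13440), had 0.39 (adjusted P = 0.00814) and 0.36 (adjusted P = 0.015) by the same edgeR test. The largest values of the list were those of AT5G25450, at 0.94 (adjusted P = 0.0143) and 1.59 (adjusted P = 0.000844), AT5G05370, at 1.02 (adjusted P = 7.52e-05) and 1.0, just under the fold threshold (adjusted P = 0.00011), and AT3G52730, at 0.97 (adjusted P = 2.49e-05) and 0.95 (adjusted P = 3.7e-05), all by edgeR. All are small subunits of the complex.

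OM66 is known as one of the genes that rise when mitochondria are disturbed, and 10 other genes of that response were examined. In hot3-2, 7 of the 10 were higher, beside 7.8% of all tested genes, and in hot3-3, 8 were, beside 9.63%. None was lower by edgeR or DESeq2 in either allele, and 0 were lower at an unadjusted P below 0.05. The median log2 fold change was 1.78 in hot3-2 and 1.91 in hot3-3, beside 2.08 and 3.81 for the 7 BCS1-like members. This list was chosen with earlier results of these data known, so its counts of calls and P values are not independent evidence. At12Cys and NDB4, with 6 and 9 WT counts in all, passed the filter only through mutant libraries and could only come out higher. AOX1A, the alternative oxidase that passes electrons from ubiquinol to oxygen past complex III, was at 106 and 75.1 CPM in WT, 184 to 194 CPM in hot3-2, and 201 and 213 CPM in hot3-3. Its log2 fold change was 1.06 ± 0.13 (adjusted P = 0.000163, edgeR's quasi-likelihood test) and 1.20 ± 0.14 (adjusted P = 0.000106). The largest values were those of AT2G04050, a MATE-type transporter gene, at 4.09 (adjusted P = 2.36e-06) and 4.43 (adjusted P = 1.59e-06) by edgeR, and of NDB4, an alternative NADH dehydrogenase, at 3.77 (adjusted P = 2.85e-05) and 4.48 (adjusted P = 8.32e-06). UPOX, a small mitochondrial protein raised under oxidative stress, had 3.50 (adjusted P = 7.09e-08) and 3.96 (adjusted P = 3.69e-08) by the same edgeR test. ANAC017 and UGT74E2 were not called in either allele, and ANAC013 was not called in hot3-2. Of these 10 genes, 3 had the mitochondrial dysfunction motif in their window, UPOX, ANAC017 and AT2G04050, beside 1.2% of 27443 genes. The motif is named for the same response that defines this list, so nothing is read from that share. ANAC017 had log2 fold changes of 0.18 (adjusted P = 0.103) and 0.04 (adjusted P = 0.749) by edgeR. A link between the motif and these levels was not tested.

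**Figure D4:**
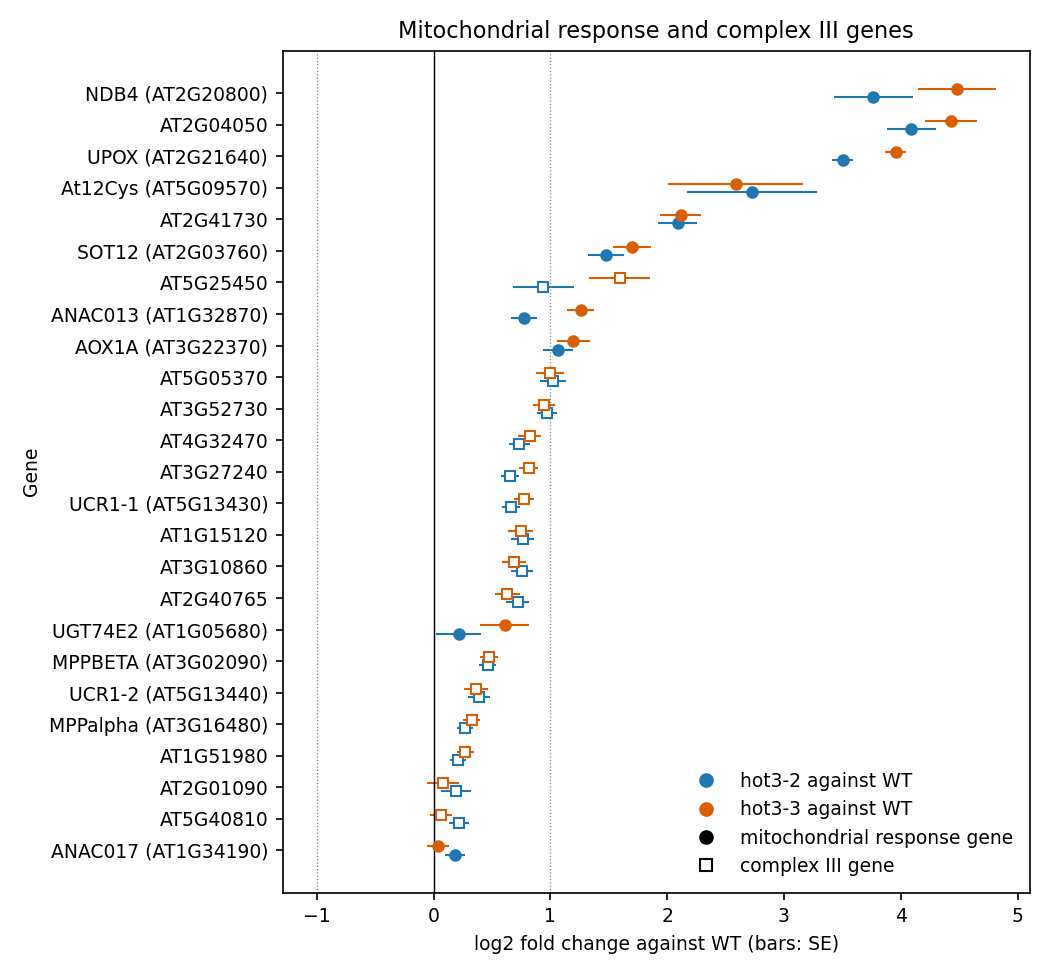
Fitted log2 fold change against WT, with its SE as bars, for the 10 mitochondrial response genes (filled circles) and the 15 complex III genes (open squares), with hot3-2 in blue and hot3-3 in orange and dotted lines at the fold threshold. Complex III genes lie between 0 and 1.59, while NDB4, AT2G04050 and UPOX lie at 3.50 or more in both alleles.

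Genes whose profile over the 7 libraries was most like that of 2 members were listed by the root mean square difference of log2 CPM relative to the WT mean, among 15501 genes with a mean of at least 5 CPM. For AT2G18190 they were AT2G05915 at a difference of 0.246, AT4G05380 at 0.829, AT1G30170 at 0.838, NAC044 at 1.09 and AT2G24255 at 1.18. AT4G05380 is thus the family gene nearest to it in this measure. For OM66 they were SZF1 at 0.251, AT1G32928 at 0.266, WRKY46 at 0.304, RHL41 at 0.335 and ERF11 at 0.361. As the measure takes in both hot3-3 libraries, genes near OM66 by it are bound to resemble it in the gap between them, and the values are given only to describe them. SZF1 was at 293 CPM in hot3-3 replicate 1 and 603 CPM in replicate 2, and WRKY46 at 11.6 and 41.5 CPM. RHL41 was at 72.3 and 197 CPM, and ERF11 at 9.96 and 43.8 CPM. The likeness is a description of these 7 libraries.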

How the data were processed

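Polyadenylated RNA of 7 seedling libraries was sequenced, and per the labels and the study's methods the authors aligned the reads with STAR and counted uniquely mapped reads per gene with featureCounts. The deposited values are raw counts and a gene length in bases. The strand setting and annotation release are not given in the sources used here. Deposited lengths equalled exonic lengths of the RefSeq TAIR10.1 annotation in 99.4% of 27445 matched genes.

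Genes passing filterByExpr (minimum count 10) were fitted with edgeR 4.0.16 in R 4.3.3 (quasi-likelihood test, trimmed mean of M values, all 7 libraries, genotype as the only term), with Benjamini-Hochberg adjustment over the 20795 genes tested in each of the 3 contrasts. Calls required adjusted P below 0.01 and an absolute log2 fold change of 1 or more, the study's threshold. The code was tested on simulated data. The members and gene lists were chosen with earlier results of these data known. The other BCS1-like genes came from a fixed list by name, not from a protein search. Named genes were the 8 members, other BCS1-like genes past the threshold and the most abundant not past it, the Rieske genes, AOX1A, the 3 largest changes of the complex III and response lists, HOT3, and the 5 profiles nearest to AT2G18190 and OM66. Genes with few counts were also given as ratios of pooled counts with exact 95% intervals, for counting error only. Identity was computed from the annotated coding sequences. Alternatives were other size factors, DESeq2 1.42.0, no filter, the compared groups only, another threshold, a replicate block, and leaving out each library. One upstream sequence is not reported here.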

Additional observations from a re-analysis of the deposited data

Results flagged for a closer look

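The level of HOT3 (AT1G76810), the mutated gene, differed between the alleles. It was higher in hot3-3 than in hot3-2 by 1.39 ± 0.14 on the log2 scale (adjusted P = 0.00107, edgeR's quasi-likelihood test), with both hot3-3 libraries above all 3 hot3-2 libraries. Against WT it was -0.93 in hot3-2 (adjusted P = 0.000525) and 0.46 in hot3-3 (adjusted P = 0.0318) by the same edgeR test. These counts are per whole gene and do not show where in HOT3 the reads lie. They are thus not a measure of intact HOT3 transcript. The paper reports that reads were lacking near the T-DNA insertion sites of both alleles.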

How the results depend on the processing

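Over 13 alternative settings, no fold change of a member changed direction. Among the 33 tested genes of the other lists, the sign differed under some setting for 2 in hot3-2 and 4 in hot3-3 against WT and for 9 between the alleles, 0 of which were past the threshold in any alternative. Those against WT were AT2G46620 and UGT74E2 (-0.14 to 0.62) in hot3-2, and AT4G25835, AT5G40810, AT2G01090 and ANAC017 (-0.0012 to 0.079) in hot3-3. Of the counts of calls, 92 stayed within 1.5 times and 12 moved. Of the single fold changes of the members, 260 kept their side of the threshold, 4 fell below it and 11 passed it. The calls among the 8 members were 3 to 4 (hot3-2) and 5 to 6 (hot3-3) when a library was left out, and those of the mitochondrial response genes 5 to 7 and 6 to 8. For the other BCS1-like genes leaving out a library gave 1 to 3 calls in hot3-2 and 1 to 4 in hot3-3, and for complex III 0 to 3 and 1 to 2. Fitting only the compared groups gave 2 calls of other BCS1-like genes in hot3-3. An adjusted P below 0.05 with no fold limit gave 5 of them in hot3-2 (4 higher, 1 lower) and 13 of complex III in each allele, where the looser limit itself admits the smaller changes. The causes of the other moves were not tested. With the replicate number as a block, the calls in hot3-2 and hot3-3 were 4 and 5 for the members, 2 and 3 for the other BCS1-like genes, 1 and 1 for complex III, and 7 and 8 for the response genes. The numbers share no stated origin, so same-numbered libraries were not taken as pairs. Deviations of same-numbered libraries correlated at 0.0314 to 0.0468 between WT and the mutants and at 0.151 and 0.181 between the mutants. Those of differently numbered libraries correlated at -0.181 to 0.0176. Centring on the mean of 2 libraries makes such values mirror each other, so they cannot show whether same-numbered libraries shared an origin. Ratios of copies were the same with reference gene lengths. WT counts of 0 to 5 limit the folds of AT2G18190, AT3G50940, AT3G28510, AT4G05380 and AT3G28570.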

Other observations

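AT5G40000, a BCS1-like gene below the filter and chosen here after its values were seen, had raw counts of 2 and 4 (WT), 7, 5 and 5 (hot3-2) and 8 and 90 (hot3-3). The high count was in hot3-3 replicate 2, the library in which OM66 was also highest. The gene was not tested.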
